A study of Mus musculus with 14 samples.

Results

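The promoters and gene bodies of the Zfp genes were overlaid with the H3K4me1 sites of mouse fibroblasts. Members were all protein-coding genes of the GENCODE M21 annotation on mm10 whose symbol is Zfp followed by a number, which gave 394 of 21938 genes. The promoter was taken as 1 kb either side of the most 5 prime transcription start site (TSS), and the gene body ran from there to the gene end. A gene was called clustered when it lay in a stretch in which 5 or more Zfp genes fell within 1 Mb, and single when no other Zfp TSS lay within 1 Mb. By this rule 192 genes were clustered, 113 were single and 89 were in between. The clustered genes formed 18 clusters of 5 to 23 members, of which 8 clusters with 80 members were on chromosome 7.

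H3K4me1 ChIP-seq had been performed on iMEF cells, immortalized mouse embryo fibroblasts, of the NG3 clone. All groups derive from iMEF-Ash2l fl/fl-Cre-ER cells, were deleted for endogenous Ash2l and express human FKBP-HA2-ASH2L from a lentiviral construct, so that a single clone stands for the model. Control cells received no dTAG-13, the PROTAC that degrades the FKBP fusion, and the other groups received dTAG-13 for 30 min, 2 h, 4 h, 8 h or 16 h. Each of these 6 conditions had 2 libraries, and 2 input libraries were made from control cells and from cells treated for 16 h. The deposited table lists 160144 sites pooled over the experiment, each as a start and an end with no signal, time point or replicate. No sequencing depth, replicate spread or effect of dTAG-13 can therefore be read from it, and a site may rest on any of the libraries. The paper reports that gains of H3K4me1 after loss of ASH2L lay nearly all at promoters. The promoter sites counted here may thus include some gained under dTAG-13, which cannot be told apart in the pooled set. Intervals are 95% intervals that cover counting only, and genes of a cluster share ancestry and neighbourhood, so that they are not independent.

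Most Zfp genes encode proteins with tandem C2H2 zinc fingers, which bind DNA. Many of the mouse proteins also carry a KRAB box, which recruits the corepressor TRIM28 and with it the H3K9 methyltransferase SETDB1, best known for silencing retrotransposons. These genes multiplied by tandem duplication, which left them in clusters, while the older zinc finger genes with roles in development tend to stand alone. H3K4me1 is deposited by KMT2 complexes, of which ASH2L is a core subunit, and is found at enhancers and on the flanks of active promoters. CpG islands are stretches of promoter DNA that kept their CpG dinucleotides.

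The range of promoter sequence is shown by 5 members. Each line holds the 250 bases directly upstream of the TSS in mm10, read 5′ to 3′ on the strand of the gene. Capitals mark each CpG and, where present, a match to ACTACANNTCCC or its reverse complement. Zfp503 is a single gene with an island and a site. Zfp455 and Zfp708 belong to the cluster on chromosome 13 and have no island, and only Zfp455 had a site. Zfp933 and Zfp990 are members of the cluster on chromosome 4 without an island, and only Zfp933 had a site.
Zfp503 (chr14:21989602-21989851, minus strand): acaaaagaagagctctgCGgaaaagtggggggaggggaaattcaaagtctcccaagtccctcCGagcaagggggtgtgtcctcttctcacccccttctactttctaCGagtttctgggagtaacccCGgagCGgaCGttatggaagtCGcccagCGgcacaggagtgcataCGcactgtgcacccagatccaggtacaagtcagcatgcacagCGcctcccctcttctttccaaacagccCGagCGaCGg
Zfp455 (chr13:67194256-67194505, plus strand): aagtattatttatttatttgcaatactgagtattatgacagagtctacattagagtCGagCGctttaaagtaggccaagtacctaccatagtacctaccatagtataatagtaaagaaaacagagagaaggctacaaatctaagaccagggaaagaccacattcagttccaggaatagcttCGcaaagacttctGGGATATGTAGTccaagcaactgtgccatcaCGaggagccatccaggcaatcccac
Zfp708 (chr13:67097977-67098226, minus strand): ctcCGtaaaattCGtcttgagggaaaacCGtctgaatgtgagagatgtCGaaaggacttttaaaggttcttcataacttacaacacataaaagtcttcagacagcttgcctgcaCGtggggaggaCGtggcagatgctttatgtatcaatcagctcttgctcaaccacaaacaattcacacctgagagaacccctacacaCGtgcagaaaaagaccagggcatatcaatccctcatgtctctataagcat
Zfp933 (chr4:147848367-147848616, minus strand): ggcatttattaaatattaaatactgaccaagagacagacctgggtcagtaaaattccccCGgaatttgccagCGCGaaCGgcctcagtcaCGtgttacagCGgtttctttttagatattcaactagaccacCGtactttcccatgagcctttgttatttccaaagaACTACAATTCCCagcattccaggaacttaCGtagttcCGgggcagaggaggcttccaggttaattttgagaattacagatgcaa
Zfp990 (chr4:145510509-145510758, plus strand): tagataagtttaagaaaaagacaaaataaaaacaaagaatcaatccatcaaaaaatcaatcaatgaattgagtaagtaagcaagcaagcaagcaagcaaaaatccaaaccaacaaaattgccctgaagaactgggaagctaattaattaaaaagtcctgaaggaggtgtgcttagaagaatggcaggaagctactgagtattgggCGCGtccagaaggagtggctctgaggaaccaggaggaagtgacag
CpG dinucleotides numbered 13 in the stretch shown for Zfp503, 9 in that of Zfp933, 7 in that of Zfp708, 4 in that of Zfp455 and 2 in that of Zfp990. A CpG count in this stretch thus did not order the members with a site above those without.

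At the promoters, the clustered and single genes carried H3K4me1 sites at close shares. Of 192 clustered promoters 162 overlapped a site by at least 1 bp, which is 84.4% (78.6 to 88.8), and of 113 single promoters 96 did, which is 85.0% (77.2 to 90.4). Of the 89 genes in between 68 did, or 76.4% (66.6 to 84.0), against 63.9% of all protein-coding promoters. The difference of single minus clustered was 0.58 percentage points, with an interval of -8.34 to 8.53, so that a difference of several points in either direction is not excluded at this number of genes. The closeness of the shares depended on the cluster on chromosome 4. Without that cluster 160 of 174 clustered promoters had a site, 92.0%, and the difference was -7.00 points (-15.4 to 0.39). Together, the Zfp promoters held 426 distinct sites, and 5 of these reached the promoters of several members.

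The near equal share hid unlike promoters. A CpG island lay within 1 kb of the TSS in 90 of 113 single genes, 79.6% (71.3 to 86.0), and in only 92 of 192 clustered genes, 47.9% (41.0 to 55.0), against 53.8% of protein-coding genes. The difference was 31.7 percentage points (20.8 to 41.2), and it was 37.1 points for islands of at least 500 bp. The ratio of observed to expected CpG within 250 bp of the TSS had a median of 0.766 at single and 0.604 at clustered genes. Single genes thus had the longer and more frequent islands.

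With an island, almost every Zfp promoter was occupied. A site was present at 91 of 92 clustered, 85 of 90 single and 46 of 49 promoters in between, against 93% of protein-coding promoters with an island. The interval of the difference between single and clustered genes, -11.3 to 1.29 points, included 0. The only clustered gene with an island and no site was Zfp868 in the cluster on chromosome 8, where the nearest site began 1071 bp from the TSS. The single genes with an island and no site were Zfp488, Zfp536, Zfp541, Zfp280c and Zfp711. Zfp541 is known from spermatocytes, and Zfp536 had a site at another of its annotated TSSs, 766 bp away.

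Without an island, a site was present more often at clustered than at single promoters, with an interval that depended on the setting. Of 100 such clustered promoters 71 had a site, 71.0% (61.5 to 79.0), against 11 of 23 single promoters, 47.8% (29.2 to 67.0), and 30% of all protein-coding promoters without an island. The difference of single minus clustered was -23.2 points (-43.4 to -1.72). This comparison was added after the data had been seen, and its interval included 0 with islands of at least 500 bp, at -9.37 points (-23.5 to 2.77), and with the TSS itself covered, at -20.6 points (-38.2 to 2.03). The genes in between lay at 22 of 40, or 55.0%. The share among clustered genes was reduced by the cluster on chromosome 4, and without that cluster it was 69 of 82, 84.1%, with a difference of -36.3 points (-56.0 to -14.9).

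**Figure D1:**
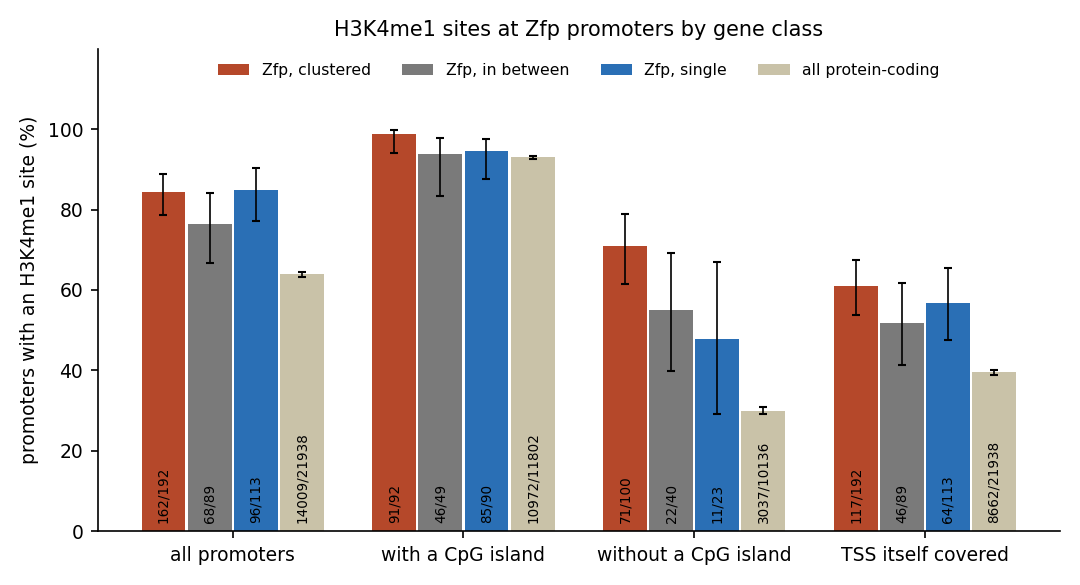
Share of promoters with an H3K4me1 site (y axis, percent) for all promoters, those with and without a CpG island, and share with the TSS itself inside a site. Bars stand for clustered, in between and single Zfp genes and all protein-coding genes, with counts inside and 95% Wilson intervals as error bars. With an island the 4 groups lie between 93% and 98.9%, and without an island clustered genes stand at 71.0% and single genes at 47.8%.

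Among promoters without an island, the share with a site rose with CpG content. None of the 16 Zfp promoters with a CpG ratio below 0.2 had a site, which allows a share of up to 19.4% by the Wilson interval. From 0.2 to 0.4 there were 23 of 51 with a site, from 0.4 to 0.6 there were 58 of 69, and from 0.6 up 23 of 27. All protein-coding promoters without an island showed the same order, namely 15.0%, 31.8%, 55.9% and 77.2%, which lay above the Zfp share below 0.2 and below it in the other 3 bins. In the bin from 0.4 to 0.6, 42 of 46 clustered promoters were occupied, with an interval of 79.7% to 96.6% that lies above the protein-coding share, whereas 18 of 21 in the highest bin had an interval that includes it. Within the clustered genes lacking an island, the median ratio was 0.500 with a site and 0.262 without. Without the chromosome 4 cluster these medians were 0.502 and 0.313. In the bin from 0.2 to 0.4, 11 of 25 clustered promoters had a site, and 11 of 16 without that cluster.

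**Figure D2:**
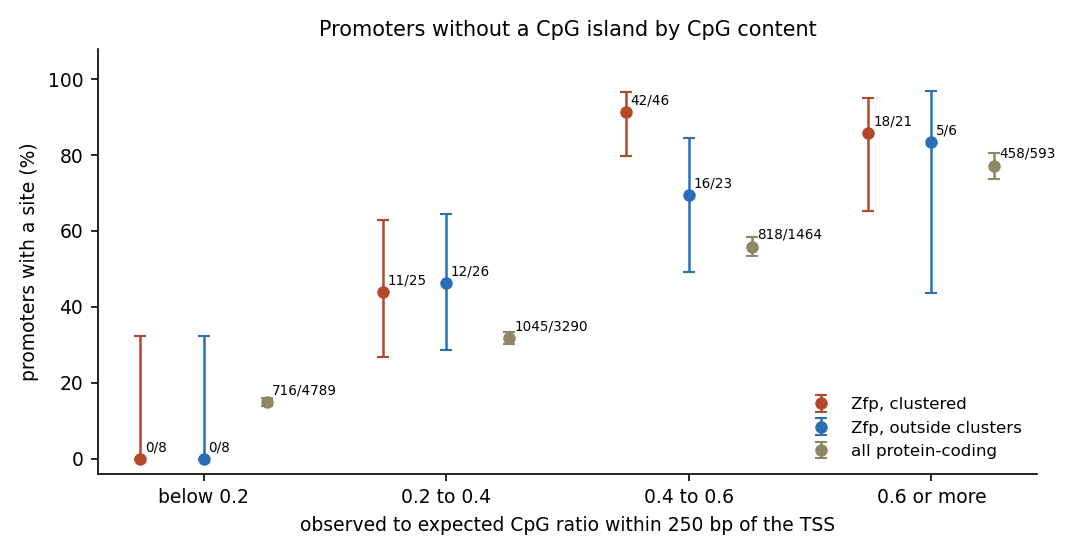
Share of promoters without a CpG island that had an H3K4me1 site (y axis, percent) in 4 bins of the observed to expected CpG ratio (x axis). Points are clustered Zfp genes, Zfp genes outside clusters and all protein-coding genes, labelled with counts, and bars are 95% Wilson intervals. In each group the share is lowest below 0.2, and clustered genes reach 42 of 46 between 0.4 and 0.6.

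The clusters differed widely from each other. In 10 of 18 clusters each member had a promoter site, which accounts for 79 genes, and 16 of these genes lacked an island. In 5 clusters each member had an island. In the cluster of 23 genes on chromosome 13 (chr13:67038596-67827002) only 3 members had an island, yet 19 had a site, 16 of them without an island. The cluster of 21 genes on chromosome 17 (chr17:21008903-23193252), with 5 islands, had a site at 20 members. Outside chromosome 4, the lowest share was 4 of 6 on chromosome 8, where Zfp930, Zfp963, Zfp964 and Zfp866 had a site and Zfp868 and Zfp869 did not.

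**Figure D3:**
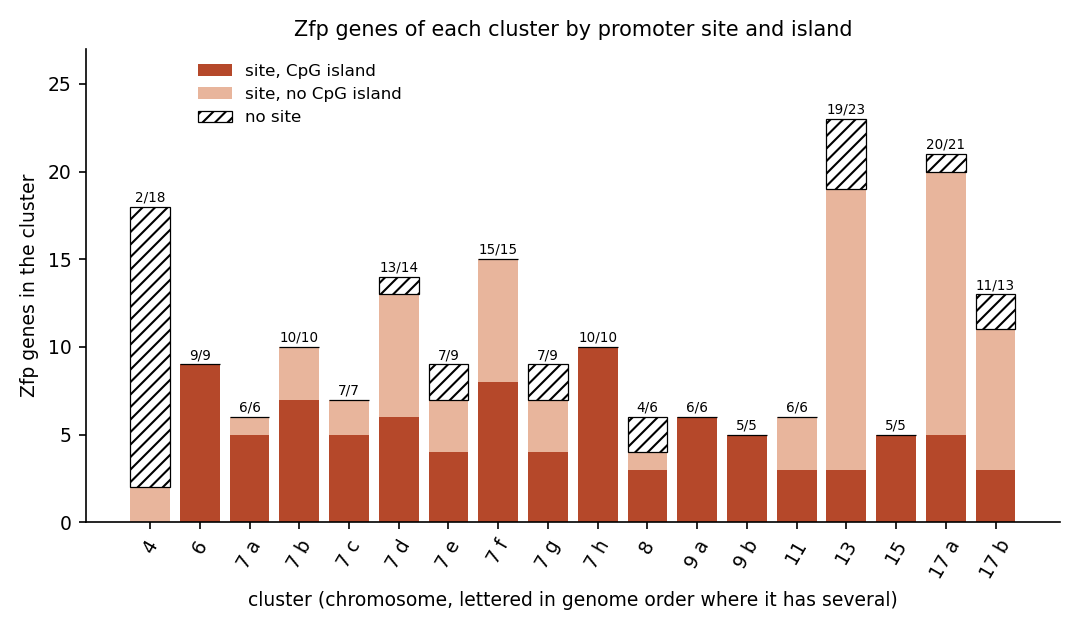
Number of Zfp genes (y axis) in each of the 18 clusters (x axis, by chromosome), divided into members with a site and an island, with a site and no island, and with no site. The numbers above the bars give members with a site of all members, and the cluster on chromosome 4 stands apart with 2 of 18.

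The cluster on chromosome 4 was nearly bare of H3K4me1 sites. It spans chr4:145510759-147848366 with 18 members, none with an island, and the promoters of Zfp984 and Zfp933 were the only 2 with a site, 1026 and 1617 bp wide. Its span held 3 sites, or 1.28 per Mb against 60.5 per Mb over all chromosomes, and the longest stretch without a site was 2297.75 kb. Its 4 other protein-coding genes had no promoter site either. The unoccupied members lay 99124 bp (Zfp990) to 1197551 bp (Zfp993) from the nearest site.

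The DNA of this cluster is also highly repeated, which limits where reads can be placed. A median of 38.9% of the 75-base words of its promoters occurred once on the mm10 chromosomes, and no other annotated TSS of its 16 unoccupied genes had a site. Only 3 of its promoters had at least 90% unique words, and Zfp984 and Zfp933 with a site and Zfp985 without were these 3. This depended on the count over chromosomes. Over all sequences of the assembly the median was 23.4% and no promoter of the cluster reached 90%. A site was then seen at 1 of 14 with under 50% and at 1 of 4 with 50% to 90%. Over all Zfp genes, a site was seen at 2 of 24 promoters with under 50% unique words, at 28 of 45 with 50% to 90% and at 296 of 325 with at least 90%. All protein-coding promoters showed the same order, with shares of 3.55%, 25.1% and 69.2% in these bins. The part of read placement in the bare promoters was not tested. Among promoters with at least 90% unique words, 146 of 152 clustered (96.1%) and 94 of 110 single (85.5%) were occupied, against 69.2% of protein-coding ones, and the difference became -10.6 points (-18.7 to -3.64). Of these, 62 of 67 clustered promoters without an island had a site, against 10 of 21 single ones and 35% of protein-coding ones.

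Other clustered genes without a site were few and often had another TSS. Outside chromosome 4 there were 14, of which 7 had a site at another annotated TSS. In the chromosome 13 cluster this held for each of the 4 genes, Zfp708, Zfp759, Zfp458 and Zfp738, whose occupied TSS lay 3520 to 16431 bp from the one used. Zfp229 was the only unoccupied member of the larger chromosome 17 cluster and had a site at a TSS 2885 bp away, and Zfp111, the only one in the cluster at chr7:24081924-25227507, at a TSS 3294 bp away. In the second cluster on chromosome 17, Zfp955a and Zfp955b had no site, and only 9.81% of their promoter words were unique. With any annotated TSS counted, 169 of 192 clustered (88.0%) and 103 of 113 single genes (91.2%) had a site, against 67.8% of protein-coding genes.

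A sequence shared by many occupied promoters was ACTACANNTCCC, the core letters of the known binding sequence of ZNF143, whose mouse gene is Zfp143. It was searched on both strands of the bases from 250 before to 50 after the TSS, after Zfp455 and Zfp933 had been seen to hold it. It was found at 52 of 192 clustered promoters, 27.1% (21.3 to 33.8), at 6 of 113 single promoters, 5.31%, and at 2.59% of all protein-coding promoters. Of the 71 clustered promoters with a site and no island 34 held it, 47.9% (36.7 to 59.3), against 2 of the 29 with neither, Zfp458 and Zfp992. The 34 include Zfp455 and Zfp933, from which the letters were taken, so these counts only describe the promoters. Of the 29, 16 belong to the chromosome 4 cluster, whose DNA is highly repeated. Among all protein-coding promoters without an island 1.51% held the match, and 4.41% of those that also had a site. Over all Zfp genes 61 of 63 promoters with the match had a site, against 94.7% of protein-coding promoters with the match and 87.6% of those with the match and no island. Occupancy with the match was thus high outside the Zfp genes too.

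The match was unevenly spread over the clusters. It was present at 18 of 23 members on chromosome 13, at 10 of 15 in the cluster at chr7:29768552-30169750 and at 6 of 6 on chromosome 11, and at no member of 9 clusters, both of chromosome 17 included. The counts thus rest on a few clusters, and the 20 of 21 occupied promoters of the larger chromosome 17 cluster held none. The GC box GGGCGG was at 37.0% of clustered, 54.0% of single and 43.0% of protein-coding promoters, and CCAAT at 44.8%, 35.4% and 39.0%. Both sequences were also common where no site was found. Of the 29 clustered promoters with neither island nor site, 15 held GGGCGG and 23 held CCAAT. Of the 71 with a site and no island, 17 and 30 did, and of all protein-coding promoters without an island 14.7% and 40.6%. In the chromosome 4 cluster, to which 16 of the 29 belong, 13 and 15 of all 18 promoters held them. The ETS core CCGGAAG was at 19.3% of clustered, 19.5% of single and 10.8% of protein-coding promoters. The consensus sequence of NRF1 was at 4.17%, 0.885% and 1.22%, and each of its 8 clustered promoters had an island. The palindromic CRE was at 5.21%, 1.77% and 2.43%, and at 9.86% of the clustered promoters with a site and no island.

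The TSS itself lay inside a site at 117 of 192 clustered (60.9%), 64 of 113 single (56.6%) and 46 of 89 genes in between (51.7%), against 39.5% of protein-coding genes. Among occupied promoters this was 72.2%, 66.7% and 67.6%, against 61.8%. A bare TSS with sites on both flanks, the form expected of a nucleosome-depleted start, was found at 19 of 162 clustered (11.7%) and 18 of 96 single promoters (18.8%), against 21.5% of the occupied protein-coding promoters. A site on the downstream side only was present at 25 clustered (15.4%) and 12 single promoters (12.5%), against 13.6%, and on the upstream side only at 1 and 2, against 3.08%. At occupied clustered promoters, the share with the TSS covered had an interval of 64.9% to 78.5%, above the protein-coding share. Their share with a bare TSS and sites on both flanks had an interval of 7.64% to 17.6%, below the protein-coding share. For sites on the downstream or upstream side only, the clustered intervals included the protein-coding share. At occupied single promoters the interval of each of these shares included it.

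The downstream side of the TSS was covered most. With an island, the sites covered up to 88.9% of the bases of clustered promoters, in the bin from 200 bp, and up to 84.2% of single promoters, in the bin from 500 bp. Without an island, coverage of clustered promoters reached 68.7%, that of protein-coding promoters 21.2% and that of the 23 single promoters 34.9% within 1 kb of the TSS, with a higher value of 38.3% in the bin from 1800 bp. Further into the gene, the clustered genes had less coverage than the single genes. In the bin from 2000 bp, coverage with an island was 18.0% in clustered, 34.1% in single and 31.5% in protein-coding genes. Without an island it was 6.58%, 34.8% and 9.07%, so that there the clustered genes lay close to all protein-coding genes.

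**Figure D4:**
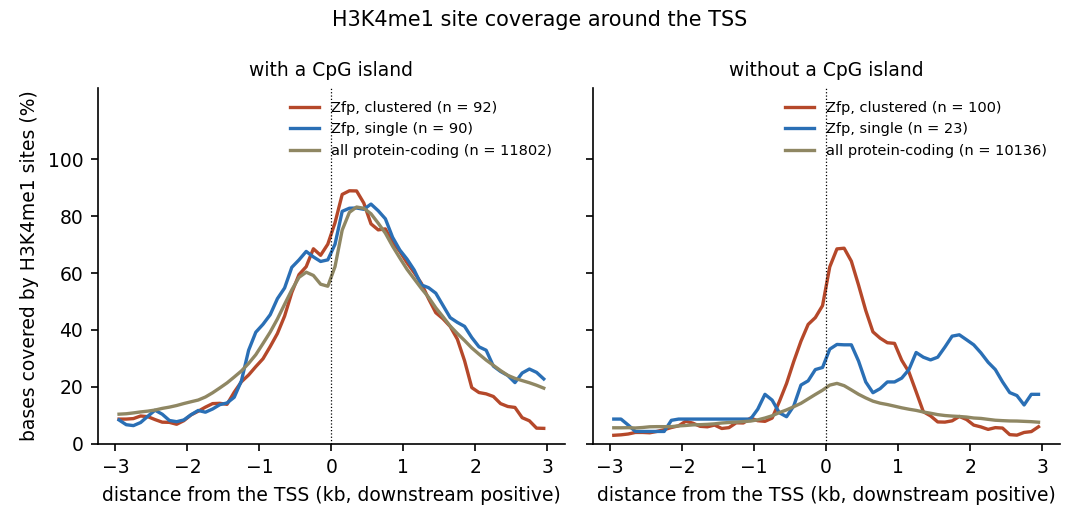
Share of bases covered by H3K4me1 sites (y axis, percent) in bins of 100 bp by distance from the TSS (x axis, kb, downstream positive), for genes with a CpG island and genes without. Lines are clustered and single Zfp genes and all protein-coding genes. Clustered genes without an island reach 68.7% downstream of the TSS and single genes 34.9% within 1 kb, and clustered genes lie below single genes at 2 kb in both panels.

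The promoter sites of clustered genes had a lower median width than those of single genes. The widest site at an occupied promoter had a median of 1350.5 bp in clustered genes (quartiles 923 and 1955, n = 162), 1723.5 bp in single genes (1146.5 and 2648, n = 96) and 1116.5 bp in the genes in between, against 1576 bp in protein-coding genes. The medians of single and clustered genes differed by 373 bp (10.2 to 783). The interval included 0 without the largest cluster, at 250.5 bp (-78.2 to 676), with symbols of digits only, at 346.5 bp (-21.3 to 746), and against all Zfp genes outside clusters, at 113.5 bp (-178 to 417). Among promoters with an island the medians were 1635 bp for clustered and 1750 bp for single genes, and without an island 1104 and 1458 bp. The site was at least 3 kb wide at 13 of 162 clustered (8.02%) and 19 of 96 single promoters (19.8%), against 15.7% of protein-coding ones. Promoter windows were wholly covered at 12 clustered (7.41%) and 19 single promoters (19.8%), against 10.7%.

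The widest sites were found at genes of several kinds. Zfp36, which lies in a cluster by position but encodes tristetraprolin, an mRNA decay factor with CCCH fingers, had the widest of all at 8542 bp. It was followed among the clustered genes by Zfp787 (7124 bp), Zfp526 (5030 bp), Zfp553 (4036 bp) and Zfp719 (3769 bp), the last of which carries a KRAB box. Among single genes the widest were Zfp703 (8175 bp), a corepressor gene amplified in breast cancer, Zfp36l1 (7727 bp), a relative of Zfp36, Zfp532 (7522 bp), Zfp462 (6165 bp) and Zfp651 (5543 bp). Among the genes in between they were Zfp710 (5060 bp), Zfp592 (3887 bp), Zfp263 (3101 bp), Zfp236 (3078 bp) and Zfp516 (2997 bp), a regulator of brown fat. Each of these 15 genes had an island.

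**Figure D5:**
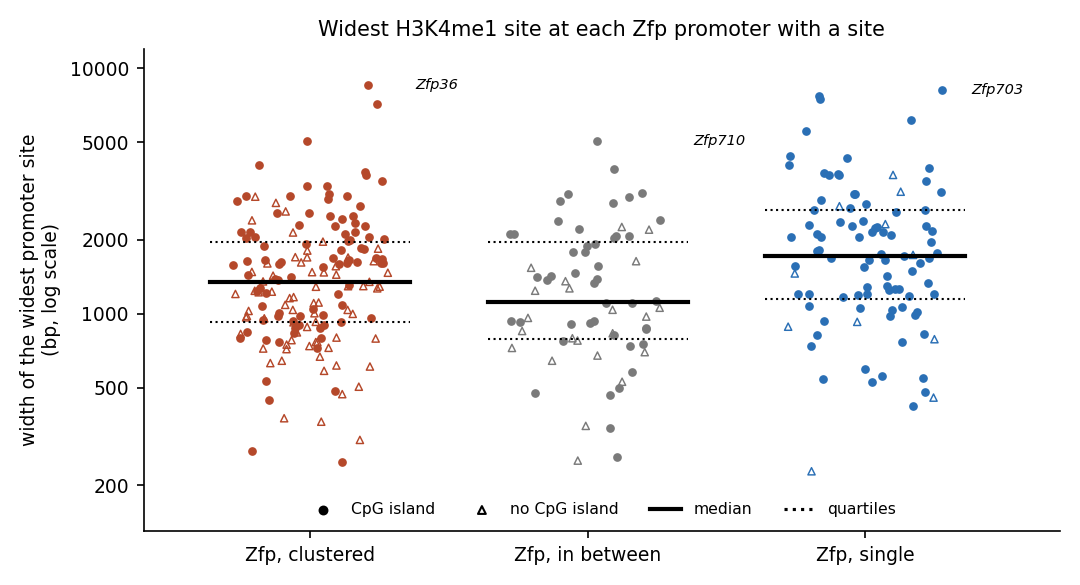
Width of the widest H3K4me1 site (y axis, bp, log scale) at each Zfp promoter with a site, for clustered, in between and single genes. Filled circles are promoters with a CpG island and open triangles those without, and lines give the median and quartiles. The medians are 1350.5, 1116.5 and 1723.5 bp, and the widest sites are those of Zfp36, Zfp710 and Zfp703 in the 3 classes.

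The gene bodies also separated the classes. A site overlapped the body of 95 of 113 single genes, 84.1% (76.2 to 89.7), and of 119 of 192 clustered genes, 62.0% (54.9 to 68.5), against 68.4% of protein-coding genes. The difference was 22.1 percentage points (11.9 to 31.1), and 16.3 points without the chromosome 4 cluster. When sites that also reached the promoter window were left out, 72 of 113 single (63.7%) and 53 of 192 clustered genes (27.6%) kept a body site, against 55.8%, a difference of 36.1 points. By this count 27.6% of the clustered genes had a site of their own inside the gene. The count includes the 18 genes of the chromosome 4 cluster, of which 1 had any body site, and it was not made without them. The part of read placement in gene bodies was not tested. With the promoter included, 103 single (91.2%) and 170 clustered genes (88.5%) had a site somewhere.

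Gene length moved with this result. Single genes had a median length of 23042 bp and clustered genes of 16179.5 bp, against 17425 bp in protein-coding genes. Per 10 kb of body, the pooled rate was 0.840 sites in single and 0.485 in clustered genes, against 0.875 in protein-coding genes. Without the chromosome 4 cluster the clustered genes had 0.577. Within bodies of 20 to 40 kb, 27 of 31 single and 36 of 63 clustered genes had a site, against 77.9% of protein-coding genes, and from 40 kb up 28 of 31 and 2 of 7, against 90.2%. Within 10 to 20 kb the counts were 17 of 23 and 48 of 79, against 69.7%. The clustered genes, those of the chromosome 4 cluster included, lay below the single genes in each of these 3 length bins. Within 10 to 20 kb the intervals overlapped, at 49.7% to 70.8% for clustered and 53.5% to 87.5% for single genes. They did not overlap in the longer bins. The bins were not counted without the chromosome 4 cluster.

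Genes with many body sites were mostly outside the clusters. At least 5 body sites were present in 30 of 113 single genes (26.5%) and 2 of 192 clustered genes, against 22.1% of protein-coding genes. The 2 clustered genes were Zfp568, a repressor of Igf2 in the embryo, and Zfp574, with 5 each, followed by Zfp266 and Zfp467 with 4. Single genes reached 50 sites in Zfp407, 47 in Zfp521, a regulator of progenitor cells, 35 in Zfp827, 32 in Zfp609 and 26 in Zfp385b, and the genes in between 23 in Zfp618, 19 in Zfp516, 17 in Zfp644, 16 in Zfp710 and 8 in Zfp236. The last coding exon, which in many of these genes holds the whole finger array, overlapped a site in 9 of 192 clustered (4.69%) and 11 of 113 single genes (9.73%), against 10.8% of protein-coding genes. Without the chromosome 4 cluster it was 9 of 174 clustered genes (5.17%), and the part of read placement in these exons was not tested.

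Zfp503, which encodes a NET family regulator of the developing striatum and limb, is an example of a single gene with several sites. The gene runs over chr14:21983959-21989601 on the minus strand, its promoter has an island of 568 bp and its nearest Zfp neighbour is beyond 1 Mb. A site of 1208 bp (chr14:21988706-21989913) lay over the TSS, a second of 2846 bp (chr14:21985450-21988295) over the body, and another of 226 bp (chr14:21985033-21985258) close to the gene end. Its last coding exon thus carried a site, as did that of 11 of 113 single genes (9.73%), against 10.8% of protein-coding genes.

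The KRAB pattern, searched in translated coding sequence with a strict pattern that misses some boxes, was present in 116 of 192 clustered (60.4%), 9 of 113 single (7.96%) and 0.862% of all protein-coding genes. A site was present at 97 of 116 clustered genes with the pattern (83.6%) and 65 of 76 without (85.5%), and among the genes in between at 19 of 21 (90.5%) and 49 of 68 (72.1%). Over protein-coding genes without an island, 59 of 103 with the pattern (57.3%) and 29.7% of those without had a site. Of these 103 genes 73 were Zfp genes, 51 of them with a site, so that the 57.3% rests mostly on the Zfp genes themselves. Of the clustered genes with the pattern, all 52 with an island and 45 of 64 without had a site. The proteins of clustered genes had a median of 12 C2H2 fingers and those of single genes 7.

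The clusters as regions varied widely in the density of sites. Together they held 741 sites in 15.9 Mb, which is 46.7 per Mb, or 54.5 without chromosome 4, against 87.0 per Mb within 500 kb of single genes and 60.5 over all chromosomes. Individual clusters ranged from 1.28 to 173 per Mb, and 8 of 18 lay above the value of all chromosomes. Of the sites in clusters 45.9% lay at a protein-coding promoter, compared with 16.0% around single genes and 10.4% overall. Since clusters were defined by the density of gene starts, a high share at promoters follows in part from that choice. Of the 225 other protein-coding genes in the clusters that encode fewer than 3 fingers 125 had a promoter site (55.6%), and of the 129 of these without an island 34 did (26.4%), which is near the 30% of protein-coding genes without an island. Of the 22 other genes with at least 3 fingers 13 had a site.

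Among 28 Zfp genes with a known role, chosen with earlier results of these data known, 24 had a promoter site, a share close to the 82.7% of all Zfp genes. These included Zfp809, a KRAB protein that silences retroviral DNA, with a site of 2441 bp, Zfp143 with 544 bp, Zfp281 with 2902 bp and Zfp423, a regulator of fat cell precursors, with 2647 bp. Zfp42, the pluripotency marker Rex1, and the testis gene Zfp541 had no site at any annotated TSS, and Zfp57, which guards imprints, and Zfp708, which binds retrotransposons, had a site only at another TSS. Of 25 genes of the KRAB corepressor pathway 22 had a site at the most 5 prime TSS. Setdb1, the heterochromatin protein gene Cbx5 and the NuRD remodeller gene Chd4 were among them. Each of these 22 had an island, and 93% of protein-coding promoters with an island had a site. Trim28, Atf7ip and Dnmt1, without an island, had a site only at another TSS, which brings the count to 25 of 25. At any TSS, 67.8% of protein-coding genes had a site. Of 10 fibroblast markers 9 had a promoter site, Col3a1 being the exception, and of 15 markers of blood, epithelial, endothelial and pluripotent cells 8 had a site and 11 had one at any TSS, so that their share was near the 63.9% and 67.8% of all protein-coding genes. Presence of a site in this pooled table is therefore not restricted to genes that define fibroblasts.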

How the data were processed

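Per the labels and the study's methods, the authors used Trim Galore for trimming, BWA for alignment to mm10, SAMtools and Picard MergeSamFiles for handling and merging alignments, and MACS for calling broad H3K4me1 peaks. The deposited values are site positions only, with starts counted from 0, and versions are not given in the sources used here. Columns other than chromosome, start and end were not present. Of 160144 sites, 160108 on chromosomes 1 to 19 and X were used, and the narrowest was 200 bp wide and the median 603 bp.

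Members and lists were chosen with earlier results of these data known. Genes and sequence were taken from GENCODE M21 and GRCm38. Islands were called on repeat-masked sequence by the UCSC scoring (17 per CpG, -1 per other base, longer than 200 bp, GC at least 50%, observed to expected CpG over 0.6), which gave 16099 islands. Promoter words of 75 bases were called unique when found once on the chromosomes. Proteins were translated from the annotated coding exons. Shares carry Wilson intervals, their differences Newcombe intervals, and differences of medians intervals from order statistics, all at 95% and covering counting error only. The table has no value per library, so that no test over samples, depth or control level could be given, and the planned edgeR comparison of each time point with control was not run. Scripts were tested on simulated sequence and sites.

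Named genes were Zfp503, a list of 28 genes with known roles, the 5 genes with the widest promoter site and with the most body sites in each class, single genes with an island and no site, occupied members of the clusters with the lowest share and unoccupied members of those with the highest, and lists of 25 corepressor genes and of cell type markers. Other genes were named after their values were seen, and the letters ACTACANNTCCC were chosen after promoters had been read. Computations used Python 3.11.15, numpy 2.4.6, pandas 2.3.3 and scipy 1.17.1.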

Additional observations from a re-analysis of the deposited data

How the results depend on the processing

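Of 61 alternatives, 13 of them chosen after the data had been seen, 56 left the difference between single and clustered genes within its interval, none turned the sign of a difference whose interval excluded 0, and 5 moved it further. With promoters of at least 90% unique words, the difference in occupancy was -10.6 points, and among promoters without an island -44.9. With sites within 1 kb merged, the difference in median width was 895.5 bp. For bodies, the difference was 2.61 points over the whole gene and 36.1 without sites reaching the promoter. The occupancy difference ranged from -10.6 to 3.44 points and was above 0 in 10 of 16 alternatives, so that its sign depends on the setting. The island share ranged from 20.9 to 37.1, occupancy with an island from -8.41 to -2.30 and without from -44.9 to -9.37 points, and width from 113.5 to 895.5 bp, with an interval that excluded 0 in 5 of 8. No paired analysis was possible because sites are pooled and carry no library values, and 4 alternatives could not be run, namely the replicate block, leaving out each replicate, DESeq2 size factors and no filter on low counts.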

Other observations

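The clusters with the most occupied members lacking an island, 16 on chromosome 13 and 15 on chromosome 17, differed in how their occupied promoters lay around the start. In the larger cluster of chromosome 17, the TSS was covered in 19 of the 20 occupied genes, while in the chromosome 13 cluster it was covered in 10 of the 19 occupied genes. The median widest site was 950.5 bp in the former and 991 bp in the latter. The cluster at chr7:127233061-127885996 had the widest sites, with a median of 3013 bp, an island at each of its 10 members and the TSS covered in 10 of 10.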
